A study of Mus musculus with 45 samples.

Results

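Ribosomal protein genes were followed in the hearts of mice that breathed cigarette smoke on a regular or a fattening diet. The members were all genes whose single annotated symbol on the array starts with Rpl, Rps, Mrpl or Mrps followed by a digit, without the S6 kinases (4 Rps6k symbols) and without 1 pseudogene symbol. The rule found 119 of 12393 genes. Of these, 45 have symbols of cytosolic ribosomal proteins (24 Rpl, large subunit, and 21 Rps, small subunit). The other 74 have symbols of mitochondrial ribosomal proteins (47 Mrpl, 27 Mrps). Classes were set from the symbol alone, which need not stand for a protein of the ribosome. Rps4l, among the 21 Rps, is a transcribed pseudogene in RefSeq. All 74 mitochondrial members and 44 of the 45 cytosolic members were among the 9295 genes tested. Rpl39l, at a mean level of 3.98, fell below the level filter and was not tested.

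The study hybridised total heart RNA of male C57BL/6 mice to 45 arrays, which the labels call biological replicates. Regular weight mice (RW) ate a diet with 5% of its energy from fat, and mice with diet-induced obesity (DIO) ate 60% from 6 weeks of age, for 9 weeks before exposure. From 15 weeks of age they breathed filtered air (sham control, SC), mainstream smoke (MS) or sidestream smoke (SS) through nose-only exposure, 5 h a day on 8 days within 2 weeks, and necropsy followed on the next day. Among regular weight mice there were 8 arrays in air (written RW-SC), 8 in mainstream smoke (RW-MS) and 7 in sidestream smoke (RW-SS); among obese mice there were 8 (DIO-SC), 6 (DIO-MS) and 8 (DIO-SS). One protocol field speaks of a study of lipopolysaccharide, whereas the titles and the treatment field name cigarette smoke. Groups were taken from the titles.

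Ribosomes translate mRNA into protein. The cytosolic ribosome serves all nuclear genes, and the mRNAs of its own proteins typically begin with a run of pyrimidines (a TOP tract) through which mTOR controls their translation. The mitochondrial ribosome has its own RNAs and its own proteins, which are made in the cytosol and imported, and it makes the few respiratory chain subunits that mitochondrial DNA still encodes. Heart muscle is rich in mitochondria, and nuclear factors such as NRF1, GABP, YY1 and ERR alpha are known to act at genes of mitochondrial proteins.

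The sequences around the transcription start show how the classes differ before any expression value is read. RefSeq promoters of GRCm38.p6 (250 bases before to 50 after each annotated start) were found for 104 of the 119 members, 118 promoters in all. The windows below run from 10 bases before the start to 20 bases from it on, read along the gene. Capitals mark a pyrimidine run of the TOP shape, a C within 5 bases of the start followed by at least 4 C or T. They are shown for members of both classes that the results return to.
Rps18 (chr17:33955646-33955675, minus strand): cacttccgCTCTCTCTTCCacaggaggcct
Rpl35 (chr2:39005112-39005141, minus strand): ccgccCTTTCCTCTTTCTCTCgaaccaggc
Rpl7a (chr2:26910797-26910826, plus strand): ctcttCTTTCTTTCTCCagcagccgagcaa
Mrpl18 (chr17:12916072-12916101, minus strand): agctttacccacagttaacatggctgcgac
Mrpl47 (chr3:32736736-32736765, minus strand): cgacactgtgggtctccattagaaacatgg
Mrpl12 (chr11:120484627-120484656, plus strand): gcctcCTCCCggatagagcgtcgcttccgc
Mrpl45 (chr11:97315706-97315735, plus strand): cgcgcgCCCCTCCCCTggagagcgtgcgcg

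The 3 cytosolic members shown carried such a run, Mrpl18 and Mrpl47 did not, and Mrpl12 and Mrpl45 had runs made mostly of C. Over the whole classes, the shape was present in 20 of 47 cytosolic promoters (42.6%), in 16 of 71 mitochondrial promoters (22.5%) and in 18.3% of all 32851 promoters. The ETS and GABP motif, CCGGAAGT or ACTTCCGG, was in 19.1% of cytosolic, 15.5% of mitochondrial and 3.89% of all promoters. The YY1 motif, AAGATGGC or GCCATCTT, was in 8.51%, 15.5% and 2.75%, and the NRF1 core, GCGCATGC or GCATGCGC, in 4.26%, 11.3% and 2.71%. Both strands were read for these motifs, and the 2 forms of the NRF1 core can overlap each other. The E-box CACGTG was in 10.6%, 9.86% and 7.15%, and TATAAA in 8.51%, 5.63% and 8.32%. A match is a description of letters and not a site.

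The next stretches are the 100 bases just before the start of 3 members that differed between groups in at least 1 comparison, with the ETS and GABP motif (Rps18, Mrps22) or the NRF1 core (Mrpl32) in capitals.
Rps18 (chr17:33955666-33955765, minus strand): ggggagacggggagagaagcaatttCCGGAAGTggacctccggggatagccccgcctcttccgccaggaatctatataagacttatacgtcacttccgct
Mrps22 (chr9:98601680-98601779, minus strand): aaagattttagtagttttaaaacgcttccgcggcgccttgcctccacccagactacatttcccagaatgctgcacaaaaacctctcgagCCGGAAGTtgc
Mrpl32 (chr13:14613038-14613137, minus strand): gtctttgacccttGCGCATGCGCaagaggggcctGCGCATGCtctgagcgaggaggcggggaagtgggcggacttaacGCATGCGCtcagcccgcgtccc

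Values are the authors' RMA values on the log2 scale, so a difference of 1 is a doubling, and levels of different probe sets cannot be set against each other as amounts. Signals of the cytosolic set were high and steady. Its median level was 11.98 (range 3.98 to 13.66), 34 of 45 members lay in the top 10% of all genes by level, and the median SD within a group was 0.061. Rps29 (13.66), Rps14 (13.16) and Rps24 (13.15), all small subunit proteins, had the highest values. The mitochondrial set had a median level of 9.82 (range 7.25 to 12.55) with 41 of 74 in the top 10%, and a median within-group SD of 0.077. Mrpl42 (12.55), Mrpl39 (11.96) and Mrpl51 (11.38) were highest and Mrps5 (7.25) was lowest. The SD over 45 arrays was smallest for Rps24 (0.04) and Mrpl33 (0.055), and largest for Rpl39l (0.251) and Mrps6 (0.191).

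The arrays held heart muscle RNA by their markers: 10 of 10 heart muscle genes stood in the top 2% by level. Array medians ranged from 6.20 to 6.24, and no pair of arrays held identical values. Arrays RW-SS 7 and RW-MS 7 stood apart. On RW-SS 7 the 3' control probe set of Gapdh exceeded the 5' one by 0.94, against at most 0.4 on any other array, a sign of RNA quality, and RW-MS 7 had the lowest correlation with its own group (0.9824). The Gapdh difference of RW-MS 7 was not raised (0.31). Both arrays had a limma array weight of 0.19, the lowest, and they are called the poor arrays below. Counts of the comparisons that include their groups are given with and without them, for the mitochondrial set, the cytosolic set or both. In whole hearts, fewer cells of a type and less RNA per cell cannot be told apart.

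Sidestream smoke in regular weight mice gave the largest shift of the mitochondrial set below air among the 4 comparisons of smoke with air. In RW-SS against RW-SC, 39 of 74 mitochondrial members (52.7%) fell and 0 rose at an adjusted p under 0.05 in limma's test (all 9295 genes, Benjamini-Hochberg), where 13% of all genes tested fell and 11.7% rose. The median difference of the set was -0.108 (quartiles -0.167 to -0.04) against 0 for all genes (quartiles -0.086 to 0.088), and 66 of 74 differences were negative. Both symbol groups took part: 23 of 47 Mrpl genes (48.9%) and 16 of 27 Mrps genes (59.3%) fell. The cytosolic set fell less. There, 11 of 44 members (25%) fell and 0 rose, with a median of -0.053 and 34 of 44 negative. The sizes were small. The largest called fold was 1.36 in the mitochondrial and 1.21 in the cytosolic set.

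**Figure D1:**
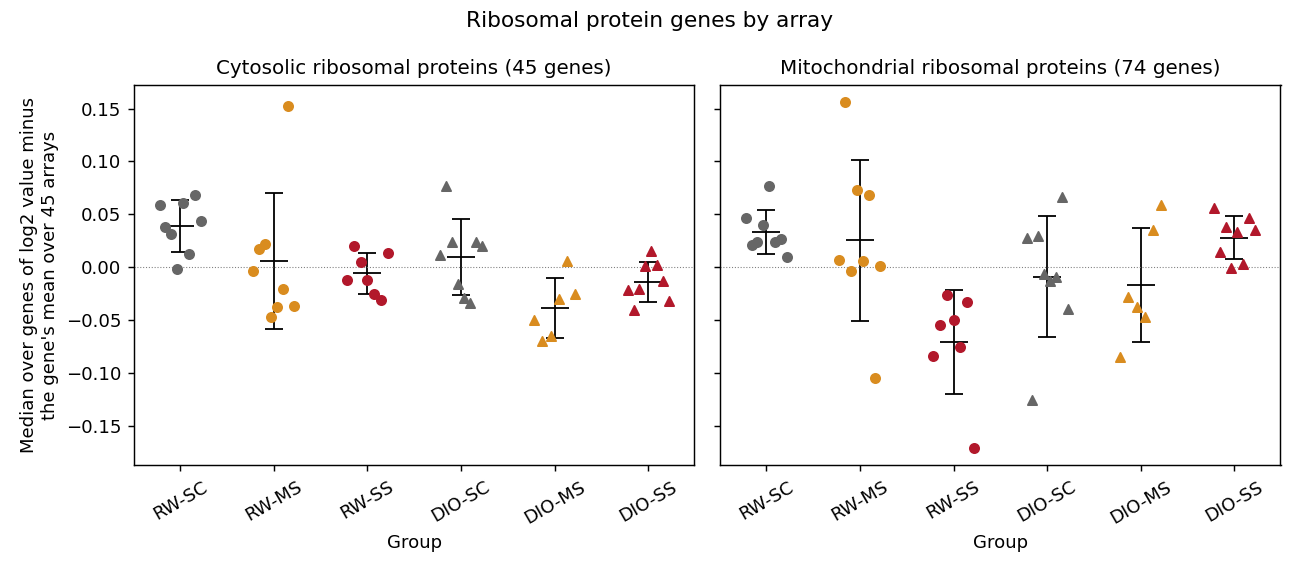
Median over the members of each array's log2 value minus that gene's mean over 45 arrays, 1 point per array, for the cytosolic and the mitochondrial set in the 6 groups (grey air, orange mainstream, red sidestream; circles RW, triangles DIO; black bars mean ± SD over arrays). The 7 RW-SS arrays lie between -0.171 and -0.026 in the mitochondrial set, below all 8 RW-SC arrays (0.01 to 0.077).

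Per array, the median over the mitochondrial members (value minus each gene's mean over 45 arrays) had its lowest, middle and highest value at 0.01, 0.026 and 0.077 in RW-SC and at -0.171, -0.055 and -0.026 in RW-SS, so the groups did not overlap. For the cytosolic members these were -0.002, 0.041 and 0.068 in RW-SC and -0.031, -0.012 and 0.02 in RW-SS, with overlap. The same median over all genes stayed within -0.054 to 0.044 on every array.

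Mrpl19 (chr6:81957826-81965949), a large subunit protein with a bacterial homologue, was the member that fell most. Its log2 level was 8.95 at the lowest, 9.02 at the median and 9.17 at the highest in the 8 RW-SC arrays, and 8.46, 8.6 and 8.79 in the 7 RW-SS arrays. Every RW-SS array lay below every RW-SC array. The difference was -0.44 ± 0.05 (SE; 8.59 ± 0.11 SD, n = 7, against 9.03 ± 0.07 SD, n = 8; limma adjusted p = 6.36e-09), a fold of 1.36. A further probe set of Mrpl19, at a mean level of 7.53, differed by -0.42. Over 29 settings of the processing the Mrpl19 difference ran from -0.47 to -0.31 and kept its call.

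Mrpl18, whose bacterial homologue binds the 5S rRNA, followed. It read 10.03, 10.14 and 10.23 (lowest, median, highest) in RW-SC and 9.65, 9.83 and 9.9 in RW-SS. The groups did not overlap, and the difference was -0.33 ± 0.04 (limma adjusted p = 1.15e-08). Mrpl47, the counterpart of bacterial L29 at the rim of the exit tunnel, read 9.82, 9.89 and 9.91 in RW-SC and 9.39, 9.56 and 9.68 in RW-SS. It too was lower on every RW-SS array, by -0.32 ± 0.04 (limma adjusted p = 1.77e-07).

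Mrpl45, which anchors the ribosome to the inner membrane beside the exit tunnel, read 9.98, 10 and 10.09 in RW-SC and 9.46, 9.71 and 9.82 in RW-SS. Mrpl34, a small protein of the large subunit, read 9.81, 9.88 and 10.08 against 9.38, 9.58 and 9.69. Neither overlapped, and both differed by -0.33 (limma adjusted p = 4.39e-07 and 1.44e-06). Mrpl12, a stalk protein that also binds the mitochondrial RNA polymerase, read 10.91, 10.97 and 11.02 against 10.65, 10.76 and 10.84, again without overlap (-0.22 ± 0.03, limma adjusted p = 5.17e-06). Mrpl20 (-0.25), Mrpl55 (-0.26) and, in the small subunit, Mrps6 (-0.26) completed the 8 largest falls. Mrps12, the counterpart of the decoding protein S12, fell by 0.11 (limma adjusted p = 0.0225).

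In all, every RW-SS array lay below every RW-SC array for 16 of 74 mitochondrial members (21.6%) and 2 of 44 cytosolic members (4.55%), where this held for 3.26% of all genes tested. The 39 mitochondrial members that fell had a median level of 9.6, and the 35 that did not pass had 9.97. Of those 35, 27 had a negative difference. Further probe sets existed for 15 of the 39 genes, and 10 of the 13 such probe sets above the level filter had the same sign, 5 of them past the threshold.

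**Figure D2:**
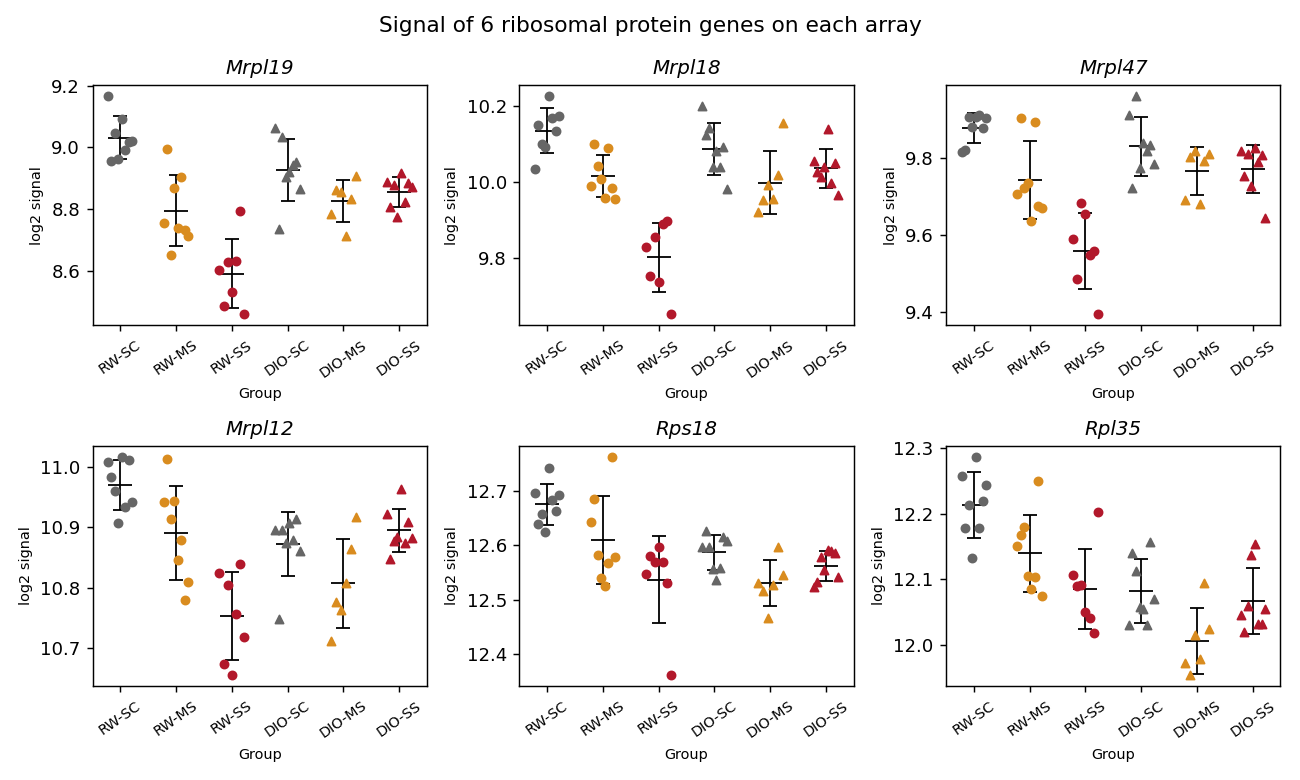
Log2 RMA values of Mrpl19, Mrpl18, Mrpl47, Mrpl12, Rps18 and Rpl35 on every array by group (grey air, orange mainstream, red sidestream; circles RW, triangles DIO; black bars mean ± SD over arrays). Mrpl19 lies between 8.46 and 8.79 in RW-SS and between 8.95 and 9.17 in RW-SC, while DIO-SS (8.78 to 8.92) lies within the range of DIO-SC (8.74 to 9.06).

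Among cytosolic members, Rps18, a protein of the head of the small subunit, read 12.63, 12.67 and 12.74 in RW-SC and 12.36, 12.57 and 12.6 in RW-SS. It was the called cytosolic member whose groups did not overlap (-0.14 ± 0.03, limma adjusted p = 0.000878), but the mean of its probe sets gave -0.06 (adjusted p = 0.0647). Rpl35, which sits at the exit tunnel, read 12.13, 12.22 and 12.29 against 12.02, 12.09 and 12.2, with overlap (-0.13 ± 0.03, limma adjusted p = 0.00172). Rpl11, which joins the 5S particle and can bind Mdm2, differed by -0.14, Rps2 by -0.12, Rps19, a gene of Diamond-Blackfan anaemia, by -0.11 and Rps7 by -0.1. Rpl14 had the largest value (-0.27 ± 0.1, limma adjusted p = 0.0311), on a dim probe set of mean level 5.49. A brighter probe set at 11.97 lists Rpl14 beside other symbols and was outside the rule; there the difference was -0.08 (adjusted p = 0.126). Such a brighter probe set existed for 10 cytosolic members, among them Rpl12, Rpl37, Rpl39, Rps6, Rps25 and Rps27, whose values therefore rest on dimmer signals. Rps6, the S6 kinase substrate (-0.12, limma adjusted p = 0.0848), and Rps3 (-0.04, limma adjusted p = 0.34) did not pass.

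Several values moved with this contrast. The 5 measured of 7 red cell markers had a median per array of -0.29 to -0.1 in RW-SC and of 0.04 to 1.1 in RW-SS (log2 value minus each gene's mean), without overlap, and Hba-a1 and Epb42 among them lay below the level filter. Their part in the result was not tested. Without RW-SS 7, 32 mitochondrial and 13 cytosolic members were called, and with the Gapdh 3' minus 5' difference as a covariate 35 and 14. The scaling of the arrays bore on the count: after further quantile normalization, or with each array centred on the median of the genes tested, 24 mitochondrial members fell (32.4%, where 11.1% and 10.3% of all genes fell).

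**Figure D3:**
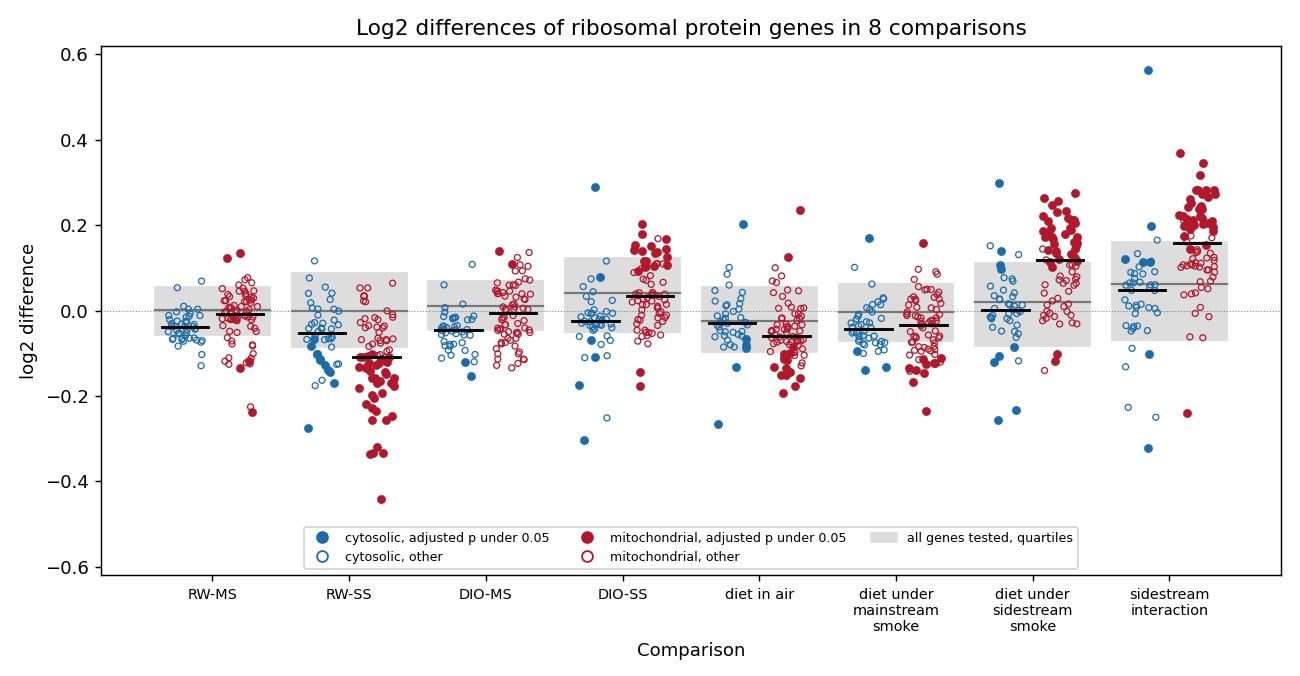
Log2 differences of every tested member in the comparisons of the study (blue cytosolic, red mitochondrial; filled points passed limma's adjusted p of 0.05; grey boxes are the quartiles of all genes tested; black lines are set medians). The mitochondrial members lie mostly below 0 in RW-SS (median -0.108) and mostly above 0 in the diet comparison under sidestream smoke (median 0.118).

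In obese mice, sidestream smoke went with a different picture. In DIO-SS against DIO-SC, 17 mitochondrial members (23%) rose and 2 fell, where 23% of all genes tested rose and 8.82% fell, so the share that rose was the background's. The set median was 0.034 against 0.042 for all genes. The split turned with the scaling: 2 rose and 8 fell after quantile normalization, 2 rose and 9 fell after centring. Of the cytosolic set 2 rose and 4 fell, and after centring 0 rose and 23 fell. Centring lowers the differences of all genes in this contrast, where their median was 0.042. The shares of all genes called after either rescaling are not given here. The rescaled counts therefore cannot be set against a background. The endothelial markers moved with this contrast too, from -0.12 to 0.01 per array in DIO-SC to 0.02 to 0.15 in DIO-SS, and their part was not tested.

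Rpl37, a zinc-binding protein of the large subunit, read 8.57, 8.75 and 8.94 in DIO-SC and 8.29, 8.45 and 8.56 in DIO-SS. The groups did not overlap (-0.3 ± 0.05, limma adjusted p = 1.78e-05). This probe set (mean 8.56) is dimmer than the one at 12.53 that lists Rpl37 beside other symbols. On that brighter probe set the difference was -0.05 and did not pass (adjusted p = 0.152). Mrps35, a small subunit protein, read 9.94, 10.12 and 10.23 against 10.26, 10.29 and 10.38, with every DIO-SS array above every DIO-SC array (0.2 ± 0.05, limma adjusted p = 0.00147). Other members called higher included Mrpl17 (0.18), Mrps11 (0.17), Mrps22 and Mrps7 (0.15 each), and Mrpl10, Mrpl14 and Mrps18c (0.14 each). Mrpl52 (-0.18) and Mrps15 (-0.14) were lower. With the mean of all probe sets, Mrpl17 and Mrps11 gave 0.03 each, Mrpl52 -0.05 and Mrps15 -0.07, and none of these 4 passed. In the cytosolic set Rpl14 (0.29) and Rps3 (0.08) were higher, and Rps25 (-0.17), Rps26 (-0.11) and Rps2 (-0.07) were lower beside Rpl37. On several-symbol probe sets Rpl14 gave -0.09 and Rps25 -0.06, neither past the threshold.

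The contrasts of sidestream smoke with air in the 2 diets share no arrays. Of the 39 mitochondrial members that fell in RW mice, 5 rose and 1 (Mrps15) fell in DIO mice, and 33 did not pass. Their median difference in DIO mice was 0.014. The difference between the diets was tested as an interaction, the DIO difference minus the RW difference. It was positive and past the threshold for 35 of 74 mitochondrial members (47.3%) and negative for 1, where 18.3% of all genes tested were positive and 10.1% negative. The set median was 0.158 against 0.063 for all genes, and 69 of 74 values were positive. Of the cytosolic members 5 were positive and 2 negative (median 0.047). Further probe sets existed for 15 of the mitochondrial genes called here. Of the 15 such probe sets above the level filter, 9 had the same sign, 6 of them past the threshold. For the cytosolic genes called, 5 of 8 such probe sets had the same sign and 0 passed.

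Among mitochondrial members the interaction was largest for Mrpl19 (0.37 ± 0.07, limma adjusted p = 0.00017). Its level in DIO mice was 8.74, 8.93 and 9.06 in air and 8.78, 8.88 and 8.92 under sidestream smoke, a range within that of air. Mrpl1, of the L1 stalk (0.34 ± 0.08, limma adjusted p = 0.00158), read 8.03, 8.12 and 8.22 in RW-SC and 7.7, 7.92 and 8.03 in RW-SS, but 7.86, 7.97 and 8.21 in DIO-SC and 7.98, 8.13 and 8.23 in DIO-SS. With the mean of its 3 probe sets the interaction was 0.09 (adjusted p = 0.192) and the RW-SS difference -0.07 (adjusted p = 0.172), so the calls for Mrpl1 rest on the probe set chosen. Mrps22, a small subunit protein specific to mitochondria (0.32 ± 0.07, limma adjusted p = 0.00181), went from 8.84, 8.9 and 8.97 to 8.43, 8.77 and 8.86 in RW mice and from 8.64, 8.77 and 8.97 to 8.84, 8.97 and 9.02 in DIO mice. On the probe sets shown, Mrpl1 and Mrps22 thus had lower medians under sidestream smoke in RW mice and higher ones in DIO mice.

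Mrpl52 ran the other way (-0.24 ± 0.09, limma adjusted p = 0.0328), but its 2 further probe sets gave 0.31 and 0.29, so the gene has no settled direction. Cytosolic members with a positive interaction were Rpl14 (0.56 ± 0.13), Rps6 (0.2), Rps3 (0.12), Rpl35 (0.11) and Rps18 (0.11). Rpl37 (-0.32 ± 0.07) and Rps14 (-0.1) had negative ones. On brighter probe sets that list several symbols, Rpl14 gave -0.01, Rps6 -0.05 and Rpl37 -0.05 (adjusted p = 0.286 for Rpl37), none past the threshold. With the mean of all probe sets Rps18 gave 0.02, Rpl35 0.06 and Rps14 -0.05, and after centring Rps3 gave 0.04, again none past it. The 7 cytosolic calls thus rest on the choice of probe set or scaling. Scaling lowered the mitochondrial count here as well, to 14 positive and 2 negative after quantile normalization (18.9% positive, 7.08% of all genes) and 12 positive and 1 negative after centring (16.2%, 5.64% of all genes). Of all genes, 9.52% and 14.8% were then negative. Without RW-SS 7 and RW-MS 7, 39 mitochondrial members were called in either direction, against 36 with them.

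**Figure D4:**
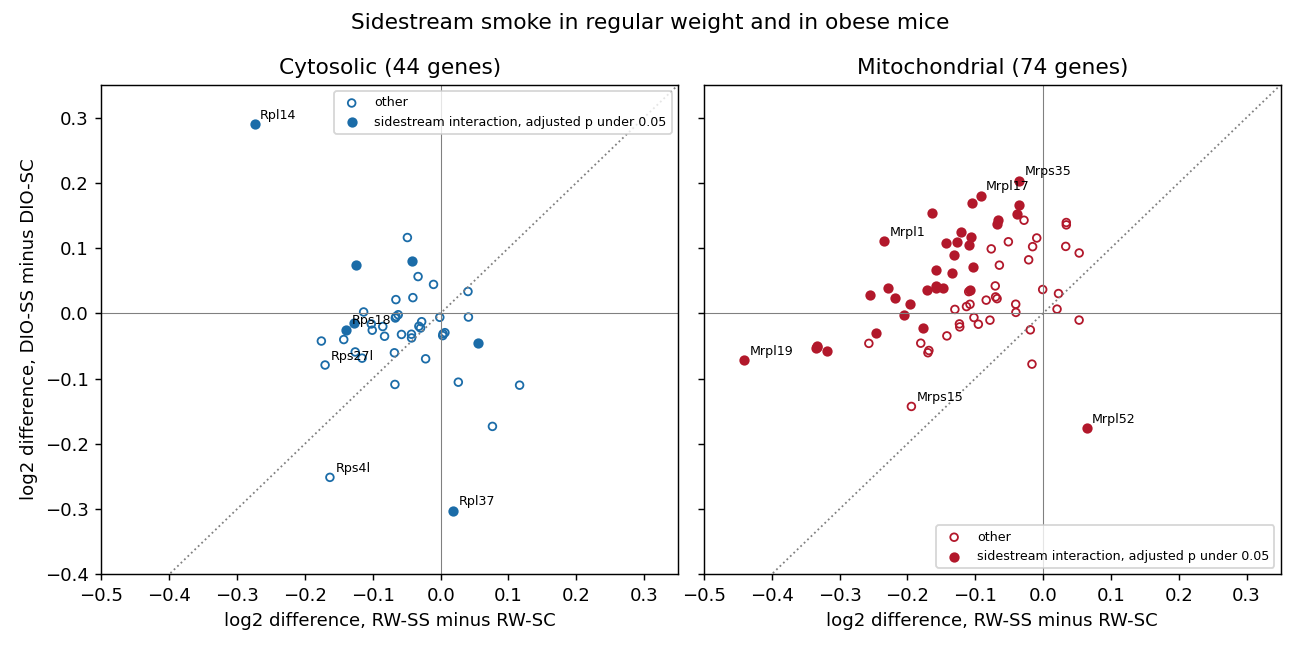
Log2 difference of sidestream smoke from air in RW mice (horizontal axis) and in DIO mice (vertical axis), 1 point per tested member (blue cytosolic, red mitochondrial). Most mitochondrial points lie left of 0, and the point farthest left, Mrpl19, is at -0.44 in RW mice.

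Mainstream smoke moved few members. In RW-MS against RW-SC, 2 mitochondrial members rose and 3 fell, where 2.86% of all genes tested rose and 4% fell. The 3 that fell were also among the largest falls under sidestream smoke, a contrast that shares the air arrays: Mrpl19 (-0.24 ± 0.05, limma adjusted p = 0.000515), Mrpl47 (-0.14) and Mrpl18 (-0.12). Mrpl19 read 8.65, 8.75 and 8.99 in RW-MS, below the mean of air on 8 of 8 arrays, though the ranges overlapped, and the mean of its probe sets gave -0.11 (adjusted p = 0.0893). Mrps30 (0.13) and Mrps18c (0.12), a paralog of the S18 family, rose. Of the cytosolic members 0 rose and 0 fell in limma's test (6 fell at an unadjusted p under 0.05), and 39 of 44 differences were negative (median -0.04). That count rests on single arrays: without RW-MS 7 it was 7, without RW-MS 3 it was 1, and without RW-MS 7 and RW-SS 7 it was 9. Array weights also gave 7. Atrial transcripts were nearly lacking on 3 RW-MS arrays (RW-MS 2, 6 and 8), and the atrial marker median ranged from -4.2 to 0.57 in this group. The part of the atrium in the RW-MS values was not tested here.

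In DIO-MS against DIO-SC, Mrps18c (0.14) and Mrpl16 (0.11) rose and no mitochondrial member fell, where 3.66% of all genes tested rose and 0.893% fell. In the cytosolic set Rps26 (-0.15 ± 0.05, limma adjusted p = 0.0451) and Rpl19 (-0.12 ± 0.04, limma adjusted p = 0.0416) fell, and 40 of 44 differences were negative (median -0.045 against 0.011 for all genes). Rpl19 read 12.37, 12.42 and 12.55 in DIO-SC and 12.25, 12.31 and 12.36 in DIO-MS, without overlap. As single arrays were left out, these counts ran from 0 to 3 (mitochondrial) and 0 to 2 (cytosolic). The interaction of diet with mainstream smoke called 0 members of either set in limma's test (2 in each at an unadjusted p under 0.05), where 0.151% of all genes were positive and 0.0753% negative. The mitochondrial median of that interaction was 0.016 against 0.015 for all genes.

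The diet itself was compared first between the air groups. The mitochondrial set leaned lower, with 14 members (18.9%) lower, 2 higher and a median of -0.059, where 13.3% of all genes tested were lower and 6.92% higher, with a median of -0.024. Mrpl28, a large subunit protein, was the exception among the large values. It read 10.19, 10.21 and 10.34 in RW-SC and 10.32, 10.5 and 10.56 in DIO-SC, higher in DIO with slight overlap (0.24 ± 0.04, limma adjusted p = 3.1e-05). Mrps35 was lower on every DIO-SC array than on any RW-SC array (-0.19 ± 0.05, limma adjusted p = 0.00363). Mrps7 (-0.18), Mrpl17 (-0.16) and Mrpl58 (-0.15), a peptidyl-tRNA hydrolase built into the large subunit, were lower too, although Mrpl17 gave 0.03 with the mean of its probe sets. This comparison shares its DIO-SC arrays with DIO-SS against DIO-SC, where Mrps35, Mrps7 and Mrpl17 were called higher. The results of these genes in both comparisons are thus not independent. Of the cytosolic set Rpl37 (0.2) was higher and 5 were lower, Rpl14 (-0.27), Rpl35 (-0.13), Rps18 (-0.09), Rpl38 (-0.08) and Rpl7a (-0.07). On several-symbol probe sets Rpl37 gave -0.02 and Rpl14 0, and with the mean of its probe sets Rps18 gave -0.01, none past the threshold. With quantile normalization 3 mitochondrial members were higher and 4 lower, and without DIO-SC 2 the count in either direction was 10 against 16. Fat markers were mixed. The median per array of the 7 measured of 9 was -1.14 to 1.52 in RW-SC and -1.28 to 0.54 in DIO-SC, with wide overlap. Group means were lower in DIO-SC for Adipoq (8.99 against 7.09), Ucp1 (7.59 against 6.29), Retn (7.61 against 6.29), Cidec (6.63 against 5.7) and Cidea (9.65 against 9.54). They were higher for Fabp4 (12.99 against 13.06) and Lep (3.76 against 4.04). Lep lay below the level filter, and the part of fat in the result was not tested.

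Under mainstream smoke, DIO-MS against RW-MS, 10 mitochondrial members were lower and 1, Mrpl28, was higher (0.16), where 5.44% of all genes tested were lower and 5.14% higher. Mrps30 had the largest difference. It read 8.71, 8.89 and 8.96 in RW-MS and 8.48, 8.65 and 8.73 in DIO-MS, with a slight overlap (-0.23 ± 0.04, limma adjusted p = 5.33e-05). Without the 3 RW-MS arrays poor in atrial transcripts, 5 mitochondrial members were called, and single arrays left out gave 4 to 13, with 4 each without RW-MS 2 or DIO-MS 2. Of the cytosolic members Rpl19 (-0.14), Rpl35 (-0.13) and Rpl6 (-0.1) were lower and Rpl37 (0.17) higher, the last at 0.05 on its several-symbol probe set, not past the threshold. Without RW-MS 7, 13 mitochondrial and 3 cytosolic members were called.

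Under sidestream smoke, DIO-SS against RW-SS, the mitochondrial set stood higher in DIO mice. There 38 of 74 members (51.4%) were higher and 2 lower, where 19.7% of all genes tested were higher and 12.9% lower, and the median was 0.118 against 0.019. Genes with Mrpl symbols made up more of them, 28 of 47 Mrpl (59.6%) and 10 of 27 Mrps (37%). For 12 members (16.2%) every DIO-SS array lay above every RW-SS array, which held for 5% of all genes tested. This comparison shares its RW-SS arrays with the comparison to air. Mrpl49 read 8.3, 8.43 and 8.57 in RW-SS and 8.59, 8.69 and 8.72 in DIO-SS, without overlap (0.25 ± 0.04, limma adjusted p = 1.03e-06). Mrpl34 (0.27), Mrpl19 and Mrpl9 (0.26 each), Mrpl18 and Mrpl55 (0.23 each), Mrpl1 and Mrps6 (0.22 each) were the other large values, and Mrpl15 (-0.12) and Mrpl39 (-0.1) were lower. The cytosolic set was split, 4 higher and 5 lower with a median of 0.001. Its higher members were Rpl14, Rps6, Rps2 and Rps19, and its lower ones Rpl12, Rps25, Rpl39, Rps27 and Rpl38. Of these 9, 6 were read on probe sets dimmer than a several-symbol one of the same gene. There Rpl14 (-0.01), Rps6 (-0.03) and Rpl12 (0.05) changed sign and did not pass, Rps27 (-0.01) and Rpl39 (-0.06) did not pass, and Rps25 (-0.09) did. With either rescaling, more mitochondrial members were higher (37.8% and 35.1%) than lower (6.76% and 4.05%). The shares of all genes called after these rescalings are not given here, so the rescaled shares cannot be set against a background. Without RW-SS 7, 33 mitochondrial members were higher and 3 lower. Markers of other cells moved with this contrast: per array, the red cell median was 0.04 to 1.1 in RW-SS and -0.35 to 0.16 in DIO-SS, that of 8 fibroblast markers -0.39 to 0.18 and -0.04 to 0.49, that of endothelium -0.14 to 0.02 and 0.02 to 0.15, and that of fat -1.32 to 1.69 and -0.69 to 1.24. Their part in the result was not tested.

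**Figure D5:**
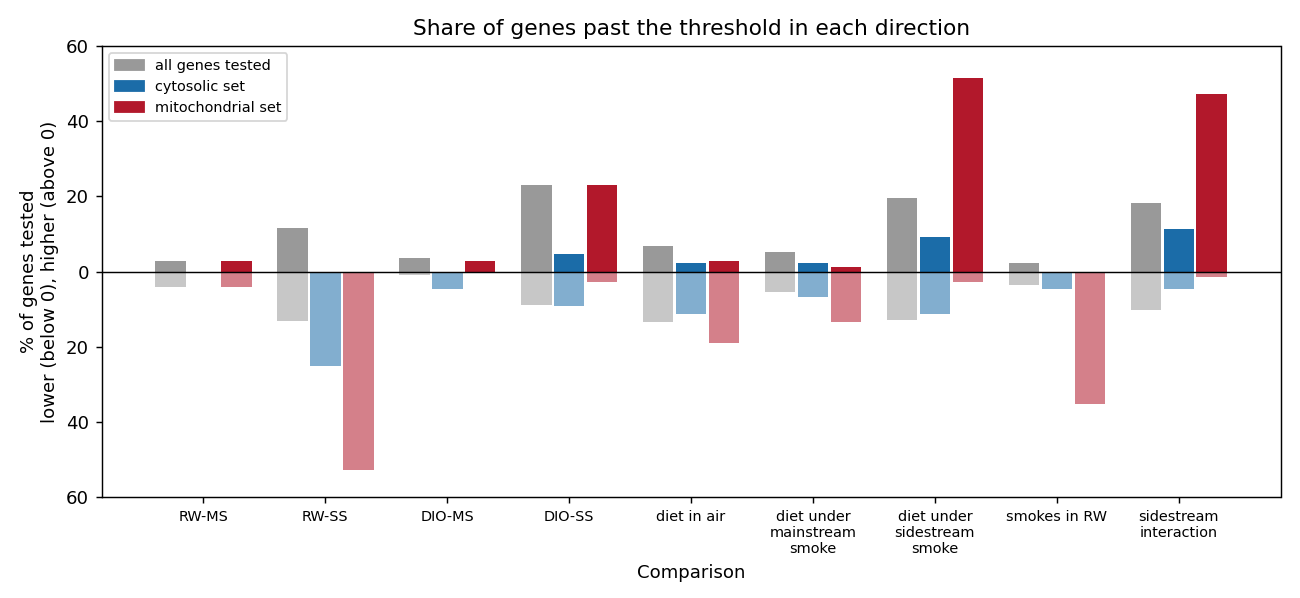
Share of the cytosolic set, the mitochondrial set and all genes tested that passed limma's adjusted p of 0.05 in 9 comparisons, with the share higher above 0 and the share lower below 0 in paler colour (percent). The mitochondrial bars reach 52.7% lower in RW-SS and 51.4% higher in the diet comparison under sidestream smoke, where all genes reach 13% and 19.7%.

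The smokes were compared directly. In RW-SS against RW-MS, 26 of 74 mitochondrial members (35.1%) were lower under sidestream smoke and 0 higher, where 3.63% of all genes tested were lower and 2.19% higher. The median was -0.098 against 0.001, and 20 of the 26 were Mrpl genes. Mrpl55 (-0.25 ± 0.05, limma adjusted p = 0.00206), Mrpl1 (-0.23) and Mrps22 (-0.22) had the largest values, although Mrpl1 gave -0.04 with the mean of its probe sets (adjusted p = 0.519). Mrpl18 read 9.95, 10 and 10.1 in RW-MS, above all RW-SS arrays. The count fell to 12 without the 3 RW-MS arrays poor in atrial transcripts, to 16 without RW-MS 2, to 17 without RW-MS 4, and to 0 when only the arrays of those groups set the spread. It was 18 without RW-SS 7, 32 without RW-MS 7 and 24 without both. Of the cytosolic members Rps27l (-0.14) and Rps2 (-0.09) were lower, with 0 called without RW-SS 7 and 4 without RW-MS 7. In DIO-SS against DIO-MS, 0 mitochondrial members were called in limma's test (14 higher and 1 lower at an unadjusted p under 0.05) and 1 cytosolic member was lower, Rpl37 (-0.2 ± 0.05, limma adjusted p = 0.0387; -0.03 on its several-symbol probe set, not past the threshold), where 0.958% of all genes tested were lower and 1.59% higher. Array weights called 24 mitochondrial members there, and leaving out DIO-MS 6 called 6.

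Paralogs of ribosomal proteins could be read apart from their partners in part. Rps27l, which p53 induces, fell in RW-SS (-0.17 ± 0.04, limma adjusted p = 0.00337). It read 10.71, 10.87 and 10.94 in RW-SC and 10.34, 10.73 and 10.81 in RW-SS, with overlap. The 2 further probe sets of Rps27l gave -0.09 each and did not pass. Its partner Rps27 differed by 0.01 on a probe set of mean 6.69, dimmer than the several-symbol one. Rpl3l, the paralog of Rpl3 found in heart and skeletal muscle, read 10.33, 10.45 and 10.64 in RW-SC and 10.07, 10.36 and 10.5 in RW-SS (-0.18 ± 0.07, limma adjusted p = 0.0656). It did not pass. Rpl7l1 differed by -0.13 against 0 for Rpl7, Rpl22l1 by 0.04 against -0.07 for Rpl22, and Rps4l, a transcribed pseudogene in RefSeq, by -0.16 against 0.04 for Rps4x, and none of these passed.

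Other genes of the translation machinery were read from lists, beside a background of 13% of all genes that fell and 11.7% that rose in RW-SS. In RW-SS, 4 of 16 (25%) mitochondrial translation factors and aminoacyl-tRNA synthetases fell and 0 rose (median -0.075), led by Mtif2, the mitochondrial initiation factor (-0.24, limma adjusted p = 2.24e-05). In the interaction with diet under sidestream smoke 7 of these 16 (43.8%, against 18.3% of all genes) were positive and 0 negative (median 0.118 against 0.063), among them Mtif2 (0.27), Fars2 (0.28), Mtfmt (0.3) and Tars2 (0.3). Of 8 ribosomal proteins whose symbols fall outside the rule, 4 fell in RW-SS and 0 rose. Among the cytosolic ones Rpsa of the small subunit (-0.11), Rplp2 (-0.09) and Fau (-0.08) fell, and Rplp0 (-0.07) did not pass. Among the mitochondrial ones Gadd45gip1 of the large subunit (-0.19) fell, and Chchd1 (-0.1), Ptcd3 (-0.06) and Dap3 (-0.01) did not pass. Most of these falls were thus cytosolic, unlike in the sets of the rule. Of 40 genes of ribosome assembly and rRNA synthesis, 8 fell (20%) and 4 rose (10%), with Polr1a, a catalytic subunit of RNA polymerase I, at -0.32. Of 41 cytosolic translation factors 7 fell (17.1%) and 6 rose (14.6%), shares near the background, with Eif5 at -0.29 and Eif4a2 at 0.22.

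Regulators were mixed. Of 15 genes of mitochondrial transcription and its control, Nrf1 (0.33 ± 0.06, limma adjusted p = 6.76e-05) and Gabpa (0.14) rose in RW-SS and Esrra (-0.19), which encodes ERR alpha, fell. The rest of these 15 did not pass, where 11.7% of all genes tested rose and 13% fell. Nrf1 had a negative interaction (-0.38) and Esrra a positive one (0.18). Of 17 genes of mTOR and Myc control 2 rose (11.8%) and 4 fell (23.5%), led by Ddit4, an inhibitor of mTOR signalling (1.09 ± 0.18, limma adjusted p = 1.7e-05), whose interaction was -1.34 ± 0.25 (limma adjusted p = 0.000281). Promoters of the mitochondrial members that fell in RW-SS (38 promoters) and of those that did not pass (33) held the NRF1 core in 5.26% and 18.2%, the ETS and GABP motif in 10.5% and 21.2%, and the YY1 motif in 15.8% and 15.2%. A TOP-shaped run was in 18.4% and 27.3%. These shares are given as counts of letters and no test was made on them.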

How the data were processed

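The authors deposited 1 log2 value for each of 22690 probe sets on 45 arrays, made with RMA per the submitters' processing notes, with no version given. Total RNA (3 µg) was labelled from oligo-dT primers per the labels' protocols, so signals favour the 3' end. Arrays have no read depth, and their number limits the precision. GEO's platform annotation named genes, and probe sets with several symbols were left out. On those alone lie 31 ribosomal symbols, 29 cytosolic and 2 mitochondrial, so the cytosolic set is the less complete one. Each gene kept its probe set of highest mean, and genes in the lowest 25% by that mean (under 4.90) were not tested. limma 3.58.1 (R 4.3.3; lmFit and eBayes, all 45 arrays, 6 groups, no covariate, two-sided) tested 11 comparisons, each adjusted by Benjamini-Hochberg over 9295 genes at 0.05, after a test on simulated data. The labels call the arrays biological replicates. Members and lists were chosen with earlier results of these data known. Named members are the 8 largest called rises and falls per set and comparison (3 in interactions and between smokes), paralogs, a few fixed genes and extremes of level or SD; 4 genes per list. Mrpl32 and others outside it were chosen after their values were seen. Title numbers do not pair the arrays. Alternatives covered filter, probe sets, scaling, weights, blocks, single arrays, a Gapdh covariate and limma settings.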

Additional observations from a re-analysis of the deposited data

Results flagged for a closer look

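In 13 of 150 groups of values checked (23 members and 2 set medians in 6 groups) 1 array stood apart from the others by Dixon's criterion, where chance gives about 5%. RW-SS 7 accounted for 6 of them. It read -0.171 for the median of the mitochondrial set (others -0.084 to -0.026), 10.34 for Rps27l (10.68 to 10.81), 11.48 for Rpl11 (11.71 to 11.81), 12.36 for Rps18 (12.53 to 12.6), 12.43 for Rps7 (12.69 to 12.74) and 8.43 for Mrps22 (8.72 to 8.86). This array also had the highest Gapdh 3' minus 5' difference (0.94). RW-MS 7 read 0.152 for the median of the cytosolic set (-0.047 to 0.022), 12.02 for Rpl11 (11.73 to 11.84) and 12.04 for Rps19 (11.69 to 11.83). The rest were single values: Rps27l at 10.71 on RW-SC 4 (10.84 to 10.94), Rps2 at 13.08 on RW-MS 2 (12.97 to 13.02), Mrpl45 at 9.74 on DIO-SC 2 (9.94 to 10.08) and Mrpl52 at 10.26 on RW-SC 2 (10.06 to 10.16).

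The effect of sidestream smoke differed between the diets by limma's interaction test for 36 of 74 mitochondrial and 7 of 44 cytosolic members. Of all genes tested, 18.3% had a positive and 10.1% a negative interaction. The cytosolic share lay below that of all genes. Among the named mitochondrial members the interaction was 0.37 for Mrpl19, 0.34 for Mrpl1, 0.32 for Mrps22, 0.28 for Mrpl45, Mrpl34, Mrpl18 and Mrpl55, 0.26 for Mrpl47, 0.22 for Mrpl20 and -0.24 for Mrpl52. Among the cytosolic members it was 0.56 for Rpl14, 0.20 for Rps6, 0.12 for Rps3, 0.11 for Rps18 and Rpl35, -0.10 for Rps14 and -0.32 for Rpl37. As given above, these cytosolic calls rest on the choice of probe set or scaling, and those of Mrpl1 and Mrpl52 on the probe set.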

How the results depend on the processing

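The alternatives were set for each count of called members; 531 of 700 recomputed counts stayed within 1.5 times the value reported and 169 did not, while 689 of 700 set medians moved by less than the spread. Under sidestream smoke in RW mice, 24 mitochondrial members were called after quantile normalization and 24 after centring (39 reported), and 6 cytosolic members when only those groups set the spread (11 reported). Called in every setting were 18 of the 39 and 3 of the 11. For the interaction with sidestream smoke, the mitochondrial count was 16 after quantile normalization and 13 after centring (36 reported). The cytosolic count (7) was 3 with the mean of all probe sets, 3 after quantile normalization, 12 with array weights, 4 with the animal number as a block and 11 without both poor arrays. For sidestream smoke in DIO mice, quantile normalization called 10 and centring 11 mitochondrial members (19 reported). The cytosolic count (6) was 2 without the level filter, 10 after quantile normalization, 23 after centring, 11 with weights and 3 with the animal block.

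For mainstream smoke in RW mice, cytosolic calls (0) were 1 with the mean of all probe sets, 1 after quantile normalization, 7 with weights, 1 with trend and robust settings, 2 with several-symbol probe sets and 9 without both poor arrays. Mitochondrial calls (5) were 9 with a stricter filter, 3 after centring, 2 with only the groups compared, 9 with the Gapdh covariate and 8 with trend and robust settings. In DIO mice, cytosolic calls (2) were 0 without a filter, 5 with a stricter one, 5 after centring, 6 with weights, 0 with only the groups compared, 0 with the replicate block, 1 with the animal block, 1 with the Gapdh covariate, 5 with trend and robust settings and 7 without both poor arrays. Mitochondrial calls (2) were 0, 5, 0, 8, 0, 1 and 1 under the first 7 of these in the same order, and 7 without both poor arrays.

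For diet in air, cytosolic calls (6) were 3 after centring, 15 with weights, 10 with several-symbol probe sets and 11 without both poor arrays; mitochondrial calls (16) were 7 after quantile normalization, 7 after centring and 26 with weights. For diet under mainstream smoke, cytosolic calls (4) were 0 with only the groups compared and 9 with several-symbol probe sets; mitochondrial calls (11) were 7 without a filter, 5 after centring, 22 with weights, 2 with only the groups compared and 5 without the 3 RW-MS arrays poor in atrial transcripts. Between the smokes in RW mice, cytosolic calls (2) were 1 with the mean of all probe sets, 1 after quantile normalization and 0 without a filter, after centring, with weights, with only the groups compared, without those 3 arrays, with the Gapdh covariate and without both poor arrays. Mitochondrial calls (26) were 16 after centring, 0 with only the groups compared and 12 without those 3 arrays. Between the smokes in DIO mice, cytosolic calls (1) were 9 with weights, 2 with only the groups compared, 3 without both poor arrays and 0 with the animal block, the Gapdh covariate and several-symbol probe sets. Mitochondrial calls (0) were 1 with the mean of all probe sets and 24 with weights. The cause of these shifts was not tested.

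Leaving out each array in turn gave these ranges (cytosolic, then mitochondrial): 0 to 7 and 2 to 9 in RW-MS, 8 to 13 and 31 to 41 in RW-SS, 0 to 2 and 0 to 3 in DIO-MS, 2 to 5 and 17 to 23 in DIO-SS, 2 to 8 and 10 to 17 for diet in air, 2 to 5 and 4 to 13 for diet under mainstream smoke, 6 to 10 and 36 to 41 for diet under sidestream smoke, 0 to 4 and 16 to 32 between the smokes in RW mice, 0 to 2 and 0 to 6 between them in DIO mice, 0 to 0 for both sets in the mainstream interaction, and 2 to 8 and 31 to 39 in the sidestream interaction.

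Of 7731 recomputed values of called members, 6622 kept direction and call, 1096 kept the direction and lost the call, and 13 changed sign. With the mean of all probe sets these were Mrpl21 in RW-SS (0), Mrpl17 for diet in air (0.03), under sidestream smoke (-0.07) and in the interaction (-0.1), Rps6 for diet under sidestream smoke (-0.03) and Mrpl52 in the interaction (0.02). With several-symbol probe sets they were Rpl14 in DIO-SS (-0.09), for diet under sidestream smoke (-0.01) and in the interaction (-0.01), Rpl37 for diet in air (-0.02), Rps6 for diet under sidestream smoke (-0.03) and in the interaction (-0.05), and Rpl12 for diet under sidestream smoke (0.05).

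The title numbers do not pair the arrays: over 106 pairs of same-numbered arrays the median correlation of deviations was 0 (-0.56 to 0.47), and 4 of 45 arrays correlated best with their own number. With the replicate block, 39 mitochondrial members were called in RW-SS and 35 in the sidestream interaction. Alternatives with several-symbol probe sets and without both poor arrays were added after the data were seen.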
